A study of Mus musculus with 4 samples.

Results

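The genes described are 10 ion channel genes of the TRP, PIEZO and ASIC families, namely Trpm7, Trpv2, Trpm2, Trpm3, Trpm4, Trpc1, Piezo1, Piezo2, Asic1 and Asic2. They were taken by exact symbol from a table of 42458 rows, of which 21132 had a count in at least 1 library. All 10 symbols had a row, 9 of them had counts, and Trpm3 had none. The data are RNA sequencing counts from 4 mice of the C57BL6 genotype. Each had an intracerebroventricular injection of an adeno-associated virus, AAV2-CAG-tdT, which codes for the red fluorescent protein tdTomato. From each mouse 50 tdTomato-positive live cells of the spinal ependymal region were sorted. The sort was meant to enrich neurons that contact the cerebrospinal fluid (CSF-cNs), and these cells made 1 library. All 4 libraries belong to 1 group, with no untreated or unsorted sample analysed here, so the data give levels and their spread between mice. CAG is a promoter active in many cell types and therefore does not by itself limit the label to CSF-cNs. No source used here gives the age or sex of the mice.

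TRP channels are cation channels opened by very different signals, among them lipids, intracellular calcium, oxidative metabolites, temperature and membrane stress. PIEZO proteins are trimeric channels opened directly by membrane tension, and ASICs are trimeric sodium channels opened by extracellular protons. CSF-cNs line the central canal, reach into its fluid and are known to respond to fluid flow, bending of the cord and changes of pH, which is why genes for mechanosensory and acid-sensing channels are of interest in cells enriched for them.

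The libraries had totals of 83007030 to 115479640 counts, and 3 counts, taken as the limit that a count of 0 allows, corresponded to between 0.0278 and 0.0348 CPM. CPM is the usual count scaled to the depth of its library, here after TMM scaling, with no correction for gene length. These limits cover counting error only, since PCR copies were not told apart. The libraries differed in the cells they seemed to hold, as read from fixed lists of marker genes. The CSF-cN list of 8 genes summed to 20.3, 12.9, 941 and 846 CPM in mice 1, 2, 3 and 4, and values of 4 mice keep this order throughout. The transgene row AAV2.CAG.tdT had 5, 58, 13533 and 153379 counts. Another row named for tdT, PC.G5.tdT, had 0, 8, 760 and 9924 counts. Microglia markers summed to between 35794 and 60513 CPM, and oligodendrocyte markers to 14726, 237, 18743 and 454 CPM. Mice 1 and 2 thus had little signal of the labelled cell type: 6 of its 8 markers were under 3 CPM in both, and the exceptions were Pkd2l1 in mouse 1 (17.9 CPM) and Tal1 in mouse 2 (10.3 CPM). Calls are therefore also given without these mice. In bulk RNA, fewer cells of a type and less RNA per cell cannot be told apart.

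Trpm7 and Trpv2 carried most of the signal of the 10 genes. The set together had 27648, 23725, 14642 and 21068 counts, and Trpm7 and Trpv2 made up 80.1%, 84.2%, 74.6% and 76.9% of them. Of the 10 genes, Trpm7, Trpv2 and Trpm2 were at 10 CPM or more in every library, Trpm4 and Piezo1 in 2 libraries each, and Piezo2 in 1. Asic1, Asic2, Trpc1 and Trpm3 did not reach 10 CPM in any library. Over 3 counts were found in all 4 libraries for 5 of the 9 tested genes, where the share over all 18522 tested genes was 62.6%. Asic1 passed 3 counts in 3 libraries, and Trpc1, Piezo2 and Asic2 did so in 2, 2 and 1.

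The level of each gene was tested against a fixed reference of 10 CPM, which has no biological meaning of its own. edgeR's quasi-likelihood test, with Benjamini-Hochberg adjustment over all tested genes, called 2 of the 9 tested channel genes above 10 CPM, and across all tested genes 36.7% were called above. It called 0 of the 9 below 10 CPM (0 at an unadjusted p under 0.05), against 0.664% of all tested genes. limma-voom, which averages log values, also called 2 above, where it called 35.9% of all tested genes. It called 2 below, Trpc1 and Asic2, with 33.3% of all tested genes called below by that tool. DESeq2 called 2 above and 0 below and gave no adjusted p for Trpc1 and Asic2. Of the 15578 genes with an adjusted p from DESeq2, 39.5% were called above and 13.1% below. The 2 calls above were Trpm7 and Trpv2. Without mice 1 and 2 edgeR called the same 2 genes, with log2 levels of 3.02 for Trpm7 and 2.99 for Trpv2 (adjusted p = 3.2e-04 and 3.6e-04).

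**Figure D1:**
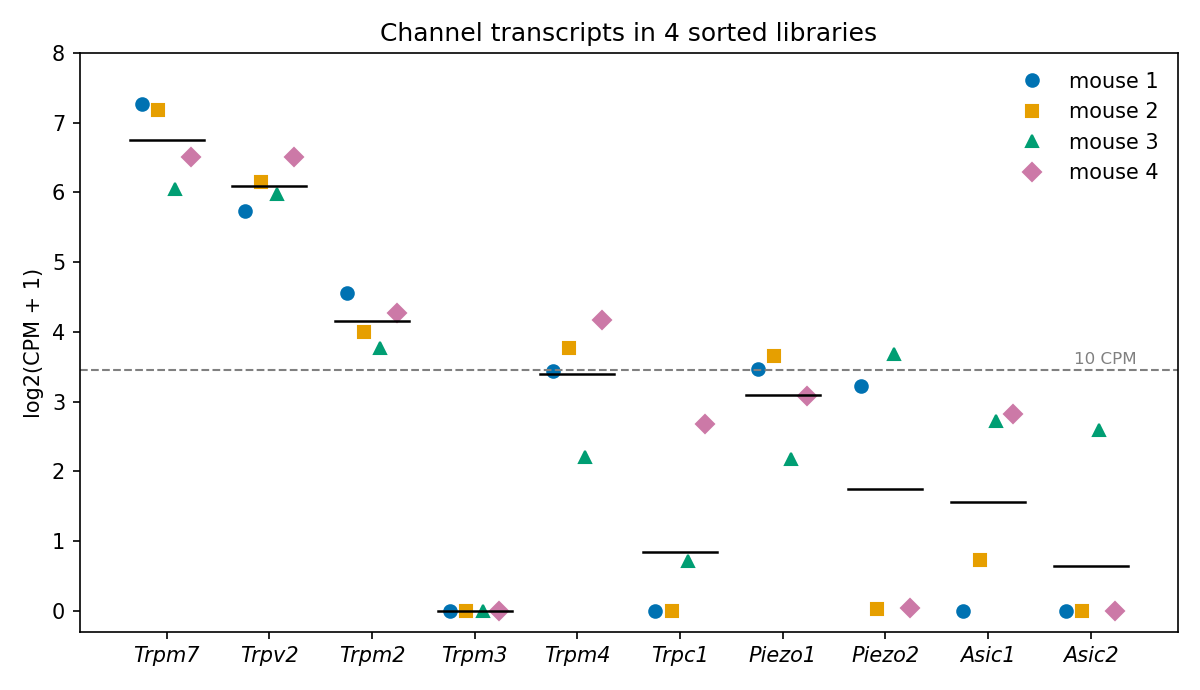
Level of each of the 10 channel genes as log2(CPM + 1), with 1 point for each of 4 mice, a black bar for the mean of the 4 and a dashed line at 10 CPM. Trpm7 and Trpv2 lie above the line in all 4 libraries, and the points of Piezo2, Asic1, Trpc1 and Asic2 are split between values at or near 0 and values of several CPM.

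Trpm7 codes for a magnesium- and calcium-permeable channel fused to a protein kinase, and its gene spans chr2:126791565-126876230 (GRCm38, minus strand). It stood at 153, 144, 64.9 and 90.4 CPM, from 16529, 13428, 5602 and 8110 counts. Both values of mice 1 and 2 were above those of mice 3 and 4, and the highest library was 2.36 times the lowest. How many of all tested genes had this split was not computed. The mean was 113 ± 42.3 CPM (SD, n = 4), and the level relative to 10 CPM was 3.50 on the log2 scale (SE 0.15, edgeR adjusted p = 2.4e-06). The adjacent sequence is shown because Trpm7 had the highest CPM of the set. It is the 250 bases before the RefSeq start (GRCm38.p6, chr2:126876262-126876511, minus strand, 5′ to 3′), with capitals for a match to CACGTG, the palindromic E box:

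Trpm7 upstream: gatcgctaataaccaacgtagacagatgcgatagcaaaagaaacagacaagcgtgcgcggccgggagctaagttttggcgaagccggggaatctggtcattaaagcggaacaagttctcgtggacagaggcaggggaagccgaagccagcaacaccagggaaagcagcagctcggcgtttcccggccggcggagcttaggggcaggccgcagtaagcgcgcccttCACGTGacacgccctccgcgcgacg

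Besides the E box, 4 short motifs were searched on both strands. The GC box was written as GGGCGG. For the ETS core the letters were GGAAGT. The cyclic AMP response element was searched as TGACGTCA and the TATA box as TATAAA, and no motif overlapped another in the windows shown. This window held only the E box, close to its 3′ end. An E box was present in 6.02% of 32851 RefSeq windows of the same length. The GC content of the window was 60.4%, where the median window had 52.4%. A match is a description of letters and was not tested as a binding site.

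Trpv2 codes for a calcium-permeable channel of the vanilloid subfamily that is known from immune cells and neurons, and spans chr11:62574486-62600515 (plus strand). It stood at 52.0, 70.2, 61.8 and 90.2 CPM, from 5620, 6558, 5328 and 8092 counts. The highest value was in mouse 4 and the lowest in mouse 1, and the highest was 1.73 times the lowest. The mean was 68.5 ± 16.2 CPM (SD, n = 4), with a log2 level of 2.78 relative to 10 CPM (SE 0.13, edgeR adjusted p = 3.9e-06). The SD of log2(CPM + 1) was 0.33 for Trpv2 and 0.58 for Trpm7, where the 9125 genes whose mean reached 10 CPM had a median of 0.50 and quartiles of 0.33 and 0.77. The sequence of the first of its 3 RefSeq windows (GRCm38.p6, chr11:62574236-62574485, plus strand) is shown because the gene was called in all settings run, with capitals for GGAAGT, the core bound by ETS factors:

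Trpv2 upstream: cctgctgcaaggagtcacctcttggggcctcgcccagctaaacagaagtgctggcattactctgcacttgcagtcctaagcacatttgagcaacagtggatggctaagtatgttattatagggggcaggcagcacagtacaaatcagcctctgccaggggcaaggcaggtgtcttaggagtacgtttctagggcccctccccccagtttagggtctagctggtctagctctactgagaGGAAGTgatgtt

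Each of the 3 Trpv2 windows held 1 such core, the first and second overlap in the genome, and 19.7% of all windows held one. The other 4 motifs were not found in them.

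Trpm2 codes for a channel opened by ADP-ribose and calcium that is known from myeloid cells and as a sensor of oxidative stress. It spans chr10:77907722-77970563 (minus strand). Its values were 22.6, 15.1, 12.7 and 18.3 CPM, all above 10 CPM, with the highest in mouse 1 and the lowest in mouse 3. The mean was 17.1 ± 4.3 CPM (SD, n = 4). Relative to 10 CPM the log2 level was 0.78 (SE 0.28, edgeR adjusted p = 0.079), so Trpm2 was not called. Tested against 5 CPM it was called (log2 level 1.78, edgeR adjusted p = 8.4e-04). Its exons share 44 and 47 bases with those of 2 small nucleolar RNA genes, which is under 1% of the exon length. The 250 bases upstream (GRCm38.p6, chr10:77969873-77970122, minus strand) are shown as those of the third gene with 10 CPM in every library, with capitals for a TATA box far upstream, on the opposite strand, and for a GC box close to the start:

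Trpm2 upstream: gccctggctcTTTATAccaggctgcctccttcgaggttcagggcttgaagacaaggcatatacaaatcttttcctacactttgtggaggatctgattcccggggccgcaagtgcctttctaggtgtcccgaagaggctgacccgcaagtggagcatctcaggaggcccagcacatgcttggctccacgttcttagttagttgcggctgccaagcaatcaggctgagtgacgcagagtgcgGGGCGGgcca

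The RefSeq start lies inside the gene as GENCODE models it, so this window is partly or wholly transcribed in that model. A GC box was present in 32.7% and a TATA box in 12.4% of all windows.

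Trpm4 codes for a calcium-activated channel that passes monovalent ions only, and spans chr7:45302632-45333780 (minus strand). It stood at 9.88, 12.7, 3.62 and 17.0 CPM, lowest in mouse 3 and highest in mouse 4, with a 4.69-fold range. The mean of 10.8 ± 5.6 CPM (SD, n = 4) was not separated from 10 CPM (log2 level 0.11, SE 0.48, edgeR adjusted p = 0.85), and the sign of this small difference turned without mouse 4 (-0.22). Trpm3, which codes for a heat- and steroid-activated channel known from sensory neurons, had 0 counts in all 4 libraries. This allows at most 0.0278, 0.0321, 0.0348 and 0.0334 CPM.

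Trpc1, a subunit of receptor-operated channels that assembles with other TRPC proteins, had 0, 0, 56 and 488 counts, or 0, 0, 0.649 and 5.44 CPM. It spans chr9:95705082-95750375 (minus strand). Mouse 4 alone held most of the signal, and the values of mice 3 and 4 do not overlap those of mice 1 and 2. The share of all tested genes with this split was not computed. Mice 3 and 4 also had more genes with a count (17291 and 16893) than mice 1 and 2 (15773 and 15869). With a mean of 1.52 ± 2.63 CPM (SD, n = 4), edgeR did not separate it from 10 CPM (log2 level -2.72, SE 2.46, adjusted p = 0.39), while limma-voom called it below (adjusted p = 0.024).

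Piezo1 and Piezo2, which code for the tension-gated channels, differed in how they were spread over the libraries. Piezo1, best known from vessels, red cells and immune cells, spans chr8:122481698-122551329 (minus strand) and stood at 10.1, 11.6, 3.51 and 7.44 CPM. Every library held at least 303 counts of it, with the lowest value in mouse 3. Its mean was 8.15 ± 3.54 CPM (SD, n = 4; log2 level -0.29, SE 0.53, edgeR adjusted p = 0.65). Of its exon bases, 2441 (24.6%) are also exon bases of Ctu2, a transfer RNA thiolation gene on the opposite strand. The libraries do not keep the strand, so the Piezo1 values are uncertain, and Ctu2 stood at 28.2, 22.0, 20.3 and 18.9 CPM. The upstream window of Piezo1 (GRCm38.p6, chr8:122551330-122551579, minus strand) is shown because the gene was found in all libraries, with capitals for a GC box followed by a TATA box:

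Piezo1 upstream: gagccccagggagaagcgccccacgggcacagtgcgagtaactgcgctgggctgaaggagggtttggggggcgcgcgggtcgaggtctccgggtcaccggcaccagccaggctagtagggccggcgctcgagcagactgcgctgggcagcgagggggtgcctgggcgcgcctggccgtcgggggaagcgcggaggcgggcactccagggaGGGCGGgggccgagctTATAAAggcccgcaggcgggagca

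This window had a GC content of 74.0%.

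Piezo2, the channel of touch and proprioceptive neurons, was present in mice 1 and 3 and nearly absent from the counts of mice 2 and 4. It spans chr18:63010213-63387183 (minus strand). Its counts were 906, 2, 1027 and 3, or 8.39, 0.0214, 11.9 and 0.0334 CPM. The values of mice 2 and 4 were within what a count of 0 allows, with 95% Clopper-Pearson intervals of 0.00259 to 0.0773 and 0.00689 to 0.0977 CPM. Mice 1 and 3 held 99.7% of the summed CPM. The mean of 5.09 ± 6.02 CPM (SD, n = 4) was not separated from 10 CPM (log2 level -0.98, SE 1.52, edgeR adjusted p = 0.60). Oligodendrocyte markers were high in the same mice: all 10 had counts, and their summed level was 14726, 237, 18743 and 454 CPM. The sum of the 10 astrocyte markers, all with counts, was high there too, at 1255, 161, 1348 and 299 CPM, mostly from Aldoc and S100b. Slc1a3 did not share this split (115, 122, 52.2 and 155 CPM). Neither did Gfap, highest in mouse 2, or Aqp4 and Gja1, highest in mouse 4. Of 7 Schwann cell and sensory neuron markers 5 had no count, Prx, Scn10a, Scn11a and Mrgprd among them, and the list summed to 3.00, 0.396, 0.846 and 0.702 CPM. The part of any of these cell types in the Piezo2 values was not tested.

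Asic1 and Asic2 code for the proton-gated subunits most common in central neurons. Asic1 spans chr15:99670368-99701130 (plus strand) and had 0, 61, 486 and 545 counts, or 0, 0.653, 5.63 and 6.07 CPM. The values of mice 3 and 4 were close to each other and above those of mice 1 and 2. As for Trpc1, the share of all tested genes with this split was not computed. Mice 3 and 4 held 94.7% of the summed CPM of Asic1. Asic2 (chr11:80880169-81968457, minus strand) had 435 counts in mouse 3 (5.04 CPM) and 0 in the other 3 mice. Means were 3.09 ± 3.21 CPM for Asic1 and 1.26 ± 2.52 CPM for Asic2 (SD, n = 4). edgeR separated neither from 10 CPM (Asic1 log2 level -1.69, SE 1.69, adjusted p = 0.43; Asic2 -2.99, SE 2.91, adjusted p = 0.42). Without mice 1 and 2, Asic1 was still not separated (log2 level -0.71, adjusted p = 0.56).

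The spread of these genes over the libraries can be read beside the marker lists. The CSF-cN list was high in mice 3 and 4, as Asic1 was, while Trpc1 was high in mouse 4 only. Pkd2l1, the polycystin channel gene of CSF-cNs and a member of that list, stood at 17.9, 0.193, 664 and 690 CPM. All 8 genes of that list had counts, and each reached 10 CPM in at least 1 library. Mouse 3, the library that held all counts of Asic2, had the highest sum of 6 marker lists. Neuron markers summed to 134, 90.3, 1125 and 393 CPM, fibroblast markers to 8.37, 0.107, 994 and 109 CPM, and oligodendrocyte precursor markers to 0.0833, 0, 10.5 and 3.73 CPM. The other lists highest there were those of CSF-cNs, oligodendrocytes and astrocytes. In mouse 3 Dcn alone gave 989 CPM of the fibroblast sum and Lhfpl3 alone 9.86 CPM of the precursor sum. Col1a1, Col3a1, Pdgfra and Neu4 had no count in any library, Lum had none in mouse 3, and Col1a2 was highest in mouse 1. Ependymal markers summed to 1.72, 3.41, 17.5 and 82.9 CPM, highest in mouse 4, which also had the highest Trpc1, and none of the 10 tested ependymal genes was called above 10 CPM by edgeR (0 at an unadjusted p under 0.05). What part these cells had in the values of the channel genes was not tested.

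Microglia markers, by contrast, were high in all libraries, and so were the most abundant channel genes. All 10 microglia markers were at 10 CPM or more in every library, and their summed level was 54295, 60513, 35794 and 51957 CPM, lowest in mouse 3. Trpm7, Trpm2, Trpm4 and Piezo1 also had their lowest value in mouse 3, and Trpv2 did not. The share of all tested genes with their lowest value in mouse 3 was not computed. Divided by the microglia sum, Trpm7 stood at 2.82, 2.37, 1.81 and 1.74 CPM per 1000 CPM of microglia markers, and its coefficient of variation was 23.2% in place of 37.4%. For Trpm2 the coefficient was 20.2% in place of 25.0%, and for Piezo1 28.0% in place of 43.4%. It was also smaller for Trpm4 (45.6% in place of 51.9%) and for Trpc1 (163% in place of 173%), which had no count in mice 1 and 2. For Trpv2 it was larger after the division, at 28.4% in place of 23.7%, with ratios of 0.959, 1.16, 1.73 and 1.74. Piezo2 (130% in place of 118%) and Asic1 (109% in place of 104%) also had a larger coefficient, and that of Asic2 stayed at 200%. Border macrophage markers were much lower than microglia markers, at 35.7 to 74.1 CPM summed, and Lyve1 had no count, while of 7 lymphocyte and neutrophil markers only Cd3d had counts. How many of all tested genes had a smaller coefficient after the division was not computed. The part of microglial RNA in these channel values was not tested.

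**Figure D2:**
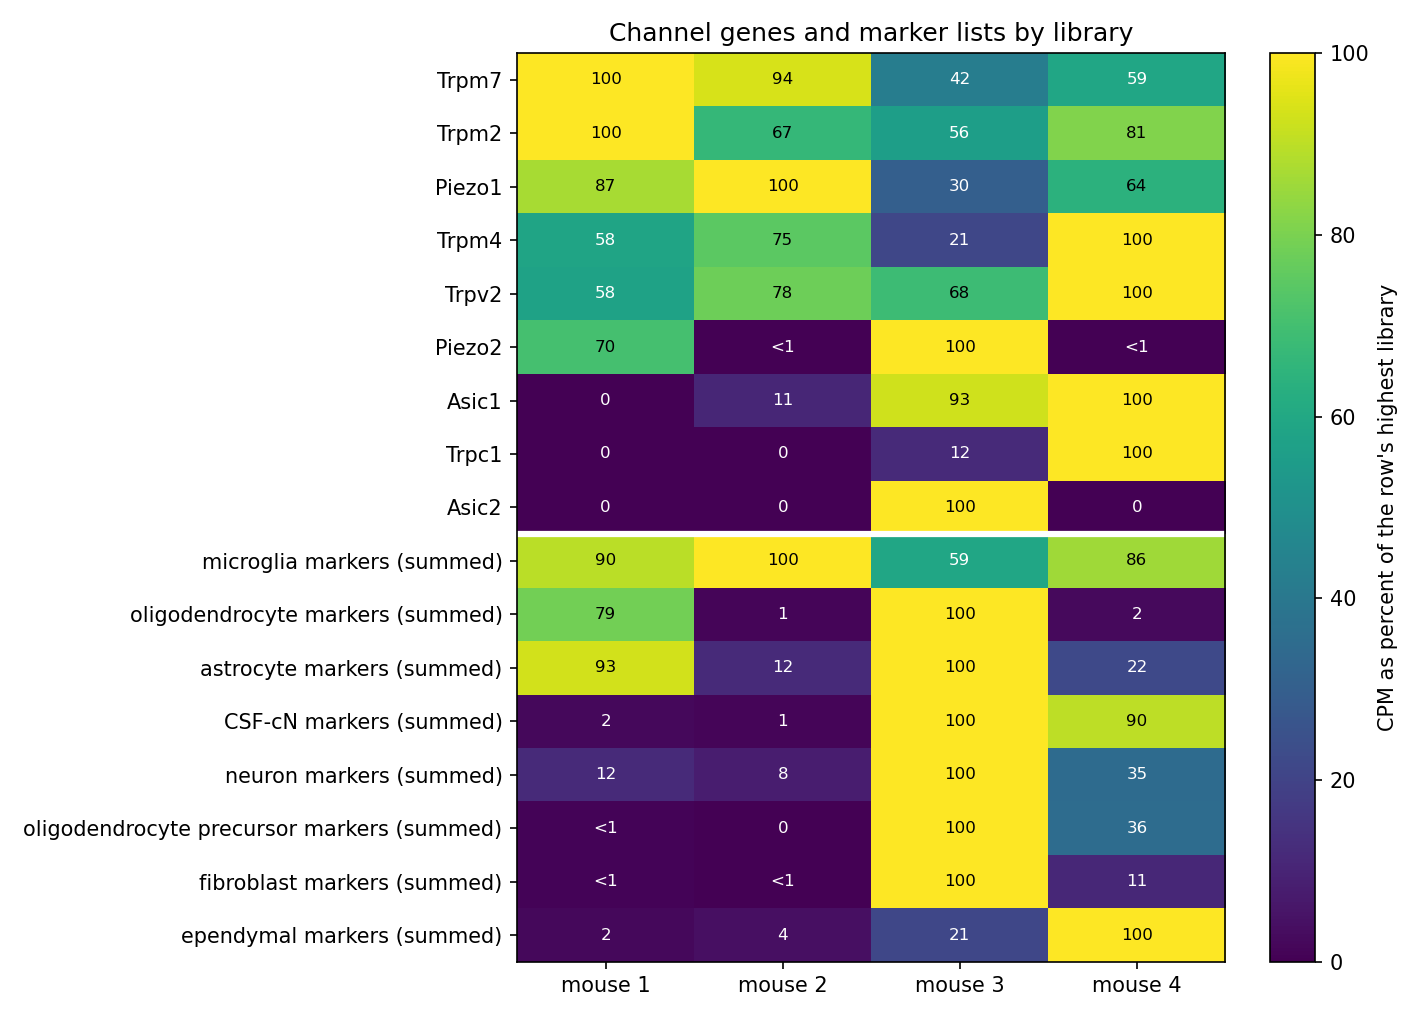
CPM of 9 channel genes and summed CPM of 8 marker lists in mice 1 to 4, each row as a percent of its highest library, with Trpm3 left out because it had no count. Trpm7, Trpm2, Piezo1, Trpm4 and Trpv2 are present in every column. Piezo2 is high in the columns in which the oligodendrocyte and astrocyte sums are high, and the astrocyte sum there comes mostly from Aldoc and S100b. Asic1 is high in the columns in which the CSF-cN sum is high, those of mice 3 and 4. The neuron, oligodendrocyte precursor, fibroblast and ependymal sums are also higher in these columns than in those of mice 1 and 2.

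Counts grow with transcript length, so genes were compared with each other as CPM per kb of merged exons. On this scale Trpv2 came first, at 15.3 ± 3.6 CPM per kb (SD, n = 4), and Trpm7 second, at 9.99 ± 3.74 CPM per kb. Their ranges overlapped, and Trpv2 was the higher in 3 of 4 mice. Trpm7 and the third gene, Trpm2 (1.38 ± 0.34 CPM per kb), did not overlap. From Trpm2 on, every neighbour in the order overlapped with the next: Trpm4 was at 0.997 ± 0.517, Piezo1 at 0.821 ± 0.356 and Asic1 at 0.538 ± 0.559 CPM per kb. Piezo2 (0.296 ± 0.351), Asic2 (0.296 ± 0.591) and Trpc1 (0.190 ± 0.327 CPM per kb) closed the order. Among 15405 tested genes with a gene model, whose median was 3.19 CPM per kb, Trpv2 was at the 80.5th and Trpm7 at the 72.9th percentile, and Trpm2 at the 36.1st.

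Merged exons can overstate the length of the expressed transcript. With the length of the transcript that has the longest coding sequence, an alternative chosen after seeing the data, Trpv2 (23.6 CPM per kb) and Trpm7 (15.9) again came first, while Trpm4 (2.55) stood above Trpm2 (2.36) and Asic1 (1.70) above Piezo1 (0.992 CPM per kb).

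Within each mouse, 6 pairs of genes were set against each other as the log2 ratio of CPM per kb + 0.1, tested by flipping the signs of the 4 ratios (exact permutation, two-sided), whose smallest possible p is 0.13. None could therefore pass 0.05. Trpm7 exceeded Trpm2 in 4 of 4 mice, with ratios of 2.83, 3.29, 2.39 and 2.37, the steadiest of the 6 (mean 2.72 ± 0.44, SD, n = 4; exact p = 0.13, adjusted 0.25 over 6 pairs). Trpm7 over Trpv2 was 0.22, -0.30, -1.25 and -1.32, so Trpm7 was the higher in mouse 1 only (mean -0.66 ± 0.75; exact permutation p = 0.25, adjusted 0.3). That mean turned to 0.67 for plain CPM, since the exons of Trpm7 sum to 11315 bases and those of Trpv2 to 4485.

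Piezo1 exceeded Piezo2 in 3 of 4 mice, with ratios of 0.92, 3.64, -0.81 and 3.06 (mean 1.70 ± 2.04; exact permutation p = 0.25, adjusted 0.3). In mouse 3 the order was the opposite. In mice 2 and 4 Piezo2 was at 0.0012 and 0.0019 CPM per kb, far under the pseudocount. The size of those ratios, and with them that of the mean, therefore depends on the pseudocount. Piezo1 values also carry the uncertainty from Ctu2 given above. In mouse 3, the only mouse with counts of Asic2, the ratio of Asic1 to Asic2 was -0.25. The sign of this value depends on the length used. In plain CPM Asic1 was the higher in mouse 3 (5.63 against 5.04 CPM). Merged exons make Asic1 the longer gene (5740 against 4264 bases), and the transcripts of longest coding sequence make it the shorter (1818 against 3436 bases). Asic2 had no count in the other 3 mice, and mouse 1 had no count of either. The ratio could not turn negative there and its size depends on the pseudocount, so its test (exact permutation p = 0.5, adjusted 0.5) is not read. Trpm7 over Trpc1 was 5.62 ± 1.78 and Trpm4 over Trpm3 3.30 ± 0.84. Both were positive in 4 of 4 mice (exact permutation p = 0.13 and adjusted 0.25 for each), but Trpm3 had no count in any mouse and Trpc1 none in mice 1 and 2, so their ratios could not turn negative there and the tests are not read.

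**Figure D3:**
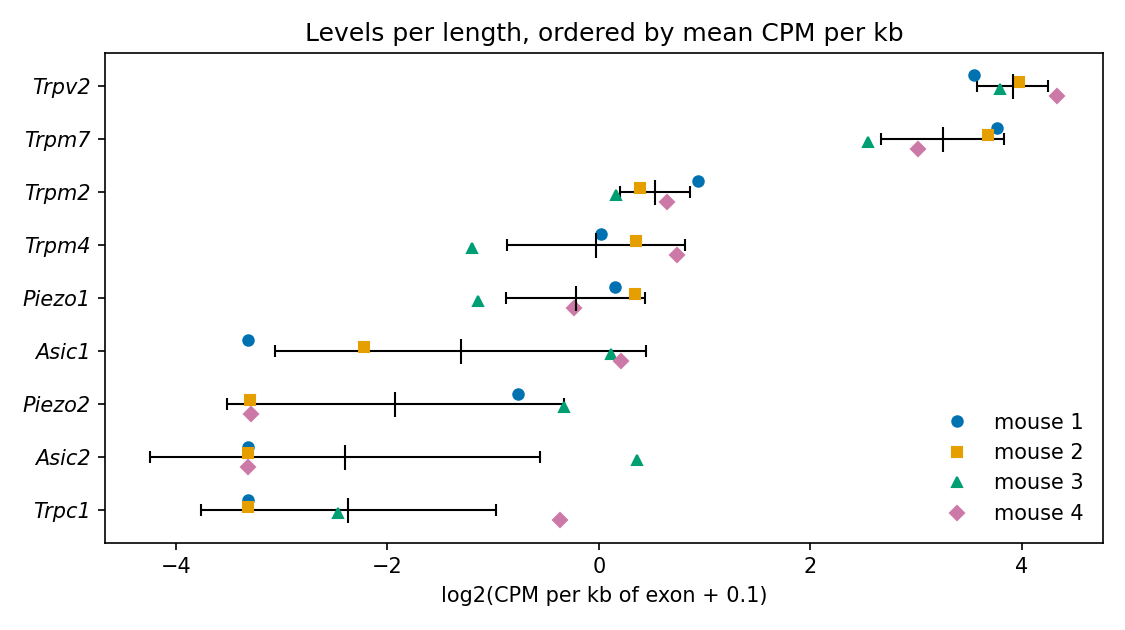
Log2(CPM per kb of exon + 0.1) of the 9 channel genes with counts, ordered from the highest to the lowest mean CPM per kb, with 1 point per mouse and black marks for the mean ± SD of these log2 values over 4 mice. Trpv2 and Trpm7 lie apart from the remaining 7 genes, whose points overlap from each gene to the next.

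Other genes of the same families, of acid and force sensing and of channel regulation were described by lists. Their counts can be set beside the shares over all tested genes given above, 36.7% above by edgeR and 33.3% below by limma-voom, and no list was tested against other genes. Of 21 other TRP channel genes, 10 had no count, 9 were tested, and edgeR called 1 above 10 CPM and 0 below (0 at an unadjusted p under 0.05; 4 by limma-voom, 0 by DESeq2). The 1 above was Mcoln1, the lysosomal TRPML channel gene, at 42.3, 41.4, 58.5 and 69.2 CPM (mean 52.9 ± 13.4, SD, n = 4; adjusted p = 1.6e-05). Pkd2, the polycystin gene, stood at 19.7, 9.80, 14.4 and 1.97 CPM, and Trpv4, an osmosensitive channel gene, at 10.3, 3.69, 7.07 and 5.23 CPM. Trpc6, a diacylglycerol-gated channel gene, was at 0, 0.0107, 3.98 and 14.1 CPM, with its higher values in mice 3 and 4 and the highest in mouse 4, as for Trpc1. Over tested genes only, the median of mean CPM was 2.64 for the 9 of this list, 8.15 for 9 of the 10 channel genes and 9.52 for all. With genes of 0 counts or too few for the test included, it was 0.0029 for this list and 6.62 for the 10 channel genes.

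Acid-sensing genes with high levels lay outside the ASIC family. Of 13 other acid-sensing genes, 7 were tested, and edgeR called 3 above 10 CPM and 0 below (0 at an unadjusted p under 0.05; 4 by limma-voom, 2 by DESeq2). Hvcn1, the voltage-gated proton channel gene, had a mean of 170 ± 46.6 CPM, Pacc1, a proton-activated chloride channel gene, 144 ± 24.1 CPM, and Gpr65, a proton-sensing receptor gene, 49.6 ± 22.1 CPM (SD, n = 4; edgeR adjusted p = 3.4e-07, 1.8e-07 and 1.1e-04). All 3 were at 10 CPM or more in every library. Asic4 had its counts in mice 3 and 4 (0, 0, 5.52 and 2.76 CPM), the libraries with the higher Asic1, and Asic3 and Asic5 had none.

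Among 21 other mechanosensitive or candidate mechanosensitive channel genes, 17 were tested, and edgeR called 4 above 10 CPM and 0 below (1 at an unadjusted p under 0.05; 8 by limma-voom, 3 by DESeq2). Tmem63a, an osmotic stress-gated channel gene, had a mean of 176 ± 62.9 CPM and stood at 201, 119, 253 and 130 CPM, higher in mice 1 and 3 than in mice 2 and 4. Lrrc8d, a subunit of volume-regulated anion channels, had 71.4 ± 13.5 CPM, and Tmc6 40.3 ± 8.4 CPM (SD, n = 4). The fourth was Tmem120a, outside the rule for named genes and named because the list had few calls (21.1 ± 4.4 CPM, edgeR adjusted p = 0.011). The values of Tmc7, 19.3, 47.8, 18.4 and 1.46 CPM, gave no call (edgeR adjusted p = 0.19). Tmc1 and Tmc2, the channel genes of hair cells, had no count.

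Of 18 genes for partners and regulators of the channels, all tested, edgeR called 11 above 10 CPM and 0 below (below, 1 at an unadjusted p under 0.05, 4 by limma-voom and 1 by DESeq2). Orai1, which codes for the pore of store-operated channels, had a mean of 137 ± 21.3 CPM. The phospholipase gene Plcg2 had 121 ± 38.6 CPM and Nudt9, which codes for a hydrolase of ADP-ribose, the ligand of Trpm2, 84.5 ± 8.3 CPM (SD, n = 4).

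**Figure D4:**
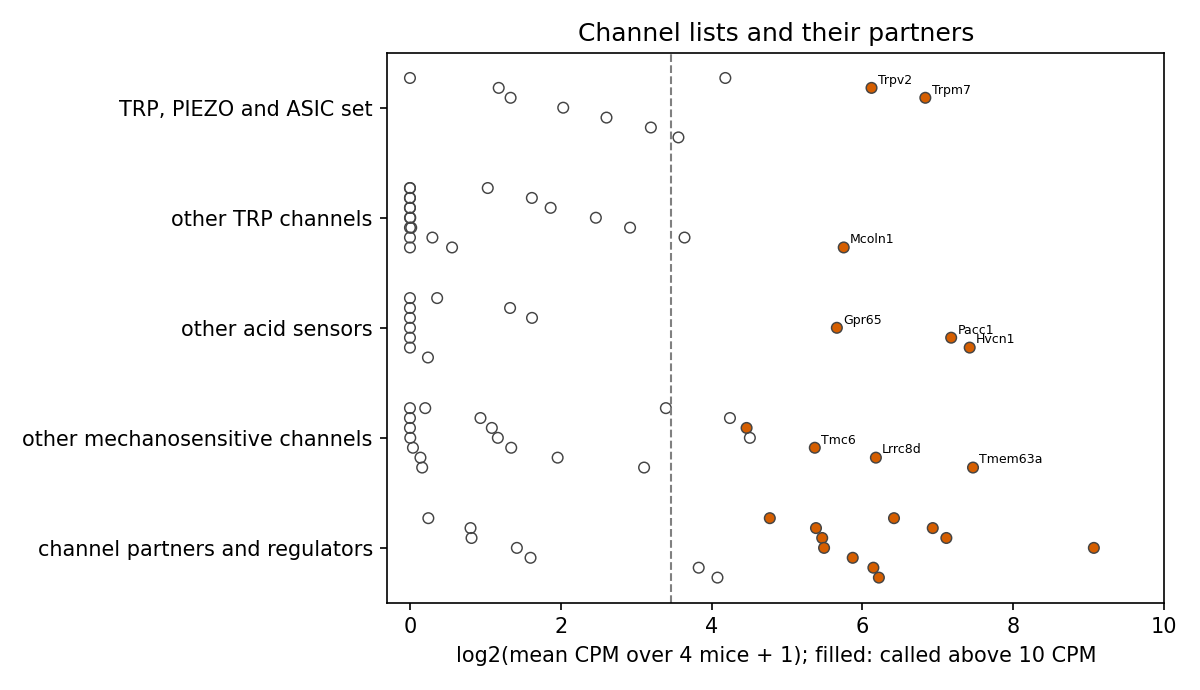
Mean level over 4 mice as log2(mean CPM + 1), 1 circle per gene, for the 10 channel genes and the 4 other lists, with filled circles for genes that edgeR called above 10 CPM and a dashed line at 10 CPM. Filled circles number 2 of 9 tested genes in the TRP, PIEZO and ASIC set and, from top to bottom, 1 of 9, 3 of 7, 4 of 17 and 11 of 18 in the other lists, where 36.7% of all tested genes were called. Genes with a mean of 30 CPM or more are named except in the lowest list.

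For the 4 channel genes whose mean reached 10 CPM, the genes of most alike pattern were taken by the root mean square difference of log2(CPM + 1), centred on the mean over the 4 mice, among the 9124 others whose mean reached that level. For Trpm7 these were Cactin, Srek1ip1 and Gm46829 (differences of 0.041, 0.049 and 0.053), each with higher values in mice 1 and 2. For Trpv2 they were Nanp, Hdac1 and Klhl9 (0.029, 0.037 and 0.037), for Trpm2 Sesn1, Tmem181a and Ankrd13a (0.016, 0.025 and 0.032), and for Trpm4 Herc6, Zfp111 and Tcf7l2 (0.095, 0.096 and 0.097). These differences, over 4 mice and 9124 candidates, are a description of these libraries only.

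The runs of each library gave nearly the same values, so the differences above were larger between libraries than between runs. For values with at least 20 counts over both runs, the ratio of the first to the second run lay between 0.990 and 1.04 for Trpv2 and between 1.01 and 1.06 for Trpm7. The widest ranges were 0.694 to 1.11 for Asic1 and 1.04 to 1.34 for Trpc1, genes with few counts in some libraries. Such spread was not confined to few counts. For Trpm2 the range was 0.821 to 1.06, and its lowest ratio, in mouse 3, came from 491 and 602 counts.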

How the data were processed

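Bulk RNA-seq counts of 4 libraries, 1 per mouse with 50 sorted cells each, were analysed. Per the labels' protocols, cDNA was made with Smart-Seq v4 and 11 PCR cycles and libraries with Nextera XT, which keep neither strand nor molecular identifiers. The tools listed per the submitters' processing notes are STAR, RSEM, Trim Galore, FastQC and DESeq2, with mm10 as genome build. Their versions and settings, and the annotation, are not stated in any source used here. The authors deposited whole-number counts for 42458 rows in 2 columns per mouse, which were summed as repeat runs, so that a mouse counts as 1 replicate. Nothing states how the 4 samples of RNA were batched. The authors also deposited log2 values, which equal log2 of the summed counts over a size factor (1.18, 1.05, 0.936 and 0.983), plus 1, and were used only as an alternative. No column lacked a sample.

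CPM used TMM factors of 0.935, 0.982, 1.04 and 1.05. Genes with at least 10 counts in total entered an intercept-only quasi-likelihood model (edgeR 4.0.16, R 4.3.3) with an F test of the level against 10 CPM, computed from the fitted deviances, with Benjamini-Hochberg adjustment over 18522 genes and a threshold of 0.05. SE is the ratio of the log2 level to the root of F. limma 3.58.1 and DESeq2 1.42.0 were alternatives. The level test was run on counts simulated at known levels, and its outcome is not reported here. The sign-flip function was compared with full enumeration on random values, which is a check of the code only. Exon lengths and positions came from GENCODE M21 (GRCm38, the assembly of mm10), with 1 model for 27895 rows holding 97.1% of counts; upstream windows came from RefSeq (GRCm38.p6), which held 8 of the 10 genes. Pair ratios used a pseudocount of 0.1 CPM per kb. Other steps used scipy 1.17.1, numpy 2.4.6, pandas 2.3.3 and, for plots, matplotlib 3.10.9 in Python 3.11.15.

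The genes, lists and tests were chosen with earlier results of these data known. Named were all 10 channel genes, in each other list the 4 genes of highest mean CPM and the 3 genes of most alike pattern; of marker lists, only genes that a result turns on are printed. Some genes that this rule names are not reported here. Endothelial and mural markers summed to 12.2 to 28.4 CPM and red blood cell markers to 1.68 to 3.44 CPM.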

Additional observations from a re-analysis of the deposited data

Results flagged for a closer look

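In 2 of the 9 channel genes with counts, 1 library stood apart from the other 3 by Dixon's criterion for 4 values on the CPM scale. Trpc1 was at 5.44 CPM in mouse 4, with 0, 0 and 0.649 CPM in the others (gap over range 0.881). Asic2 was at 5.04 CPM in mouse 3 and had 0 counts in the others (gap over range 1). None of the 6 gene pairs met this criterion. For normally distributed values chance flags about 1 in 20 such groups, and 15 groups were examined. That rate need not hold for CPM with counts of 0. A gene with counts in only 1 library, such as Asic2, always has a gap over range of 1, so its flag carries no further information. The share of all tested genes that met the criterion was not computed. Over all tested genes, 27.0% had over 3 counts in only 1 or 2 libraries.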

How the results depend on the processing

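The count of channel genes called above 10 CPM was 2 under every other scaling, filter, tool, run and left-out mouse, and without mice 1 and 2, an alternative chosen after seeing the data. It was 3 when the level tested was 5 CPM and 2 when it was 20 CPM. Over all genes, the number called above 10 CPM was 6304 to 6573 without 1 mouse, 6147 by DESeq2, 8390 against 5 CPM and 4721 against 20 CPM. The number called below 10 CPM, 123, was 0 without any 1 mouse and 0 without mice 1 and 2; it was 2485 with no filter on counts, 6164 by limma-voom, 2041 by DESeq2, and 30 and 50 in the first and second run. The cause was not tested. limma-voom called 2 channel genes below 10 CPM, Trpc1 (-6.68, adjusted p = 0.024) and Asic2 (-8.41, adjusted p = 0.0072); over all settings with an adjusted p these ranged from 0.024 to 0.55 and from 0.0072 to 0.60. Trpm7 over Trpv2 turned to 0.67 with no length scaling, which follows from the lengths, and all other pair means kept their sign in every setting run. Without 1 mouse, Piezo1 over Piezo2 ranged from 1.06 to 2.54. A pseudocount of 1 lowered Piezo1 over Piezo2 to 0.51, Trpm4 over Trpm3 to 0.96 and Trpm7 over Trpc1 to 3.17. No paired analysis was possible because there is 1 group. Counting error was small beside the spread between mice: at 16529 counts the interval of Trpm7 in mouse 1 was 151 to 155 CPM, while its mice ranged from 64.9 to 153 CPM.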
